A study of Arabidopsis thaliana with 12 samples.

Results

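A set of 288 Arabidopsis thaliana genes appeared in the deposited wild-type table of gene counts and were absent from the table of the atg5 line. They were chosen by that difference alone, out of 20780 genes listed in either table. The wild-type table held 20002 genes, of which 19714 were also in the atg5 table, and 778 genes were listed for atg5 alone. The counts of the 288 genes in atg5 libraries were not analysed here, so absence from that table stands for low counts there or for filtering, and not for silence.

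RNA came from whole seedlings of Columbia-0 (Col-0), the wild type, and of atg5, the insertion line SALK_020601C in the same species, germinated for 5 days in flasks of liquid medium. Both genotypes were grown in a control medium (NM) of diluted Murashige salts with 0.5% sucrose, and in a water stress medium (WSM) to which 2.5% glycerol and 0.5% alginic acid had been added. Of 12 labelled samples, 3 per group in 4 groups, 10 count columns were used: 3 wild-type NM, 2 wild-type WSM and 5 atg5 libraries. The mutant is a single insertion line, and nothing read here ties replicates to separate flasks, so p-values below reflect the spread among these libraries, and that spread may be technical. ATG5 joins ATG12 to form the conjugate that attaches ATG8 to lipid on the growing autophagosome, the vesicle that carries cell contents to the vacuole. The ATG5 gene (APG5, AT5G17290) had 38.5 to 51.8 counts per 1000000 counts (CPM) outside the rRNA regions in wild-type libraries and 39.5 to 52.3 in libraries labelled atg5. The ranges overlap, and a total over the whole gene does not show whether its transcript is interrupted. Below, atg5 means the libraries carrying that label.

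A seed is stocked during maturation with storage proteins, oil bodies coated by oleosins, and late embryogenesis abundant (LEA) proteins that accumulate as the tissue dries. Much of this programme is switched on by abscisic acid and by the B3-domain factors ABI3 and FUS3, which bind the RY element, while bZIP factors such as ABI5 bind the abscisic acid response element (ABRE), whose core is ACGTG. The mRNAs are degraded and the reserves consumed as a seedling becomes established. In whole seedlings, fewer cells of a type and less RNA per cell cannot be told apart.

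Each wild-type library held 19007603 to 21934311 counts, of which genes of the rRNA regions took 26.8% to 65.5%, and libraries of atg5 held 8928632 to 24022759 counts. Listing levels are given as CPM over all counts of a library, where 1 CPM was 19 to 21.9 counts in wild type. In both tables every listed gene passed 1 CPM in at least 2 libraries of that genotype. If the same level was used for both tables, a gene absent from the atg5 table had passed 1 CPM in at most 1 atg5 library. The summed level of 8 photosynthesis mRNAs, a marker of green tissue, was 29387 to 45230 CPM outside the rRNA regions in wild type and 21652 to 43904 in atg5, so these markers were present in both genotypes. Within NM the sums were 37552 to 42819 in wild type and 21652 and 21888 in atg5, and within WSM the genotypes overlapped.

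The first sequences shown are the regions before the start of 3 of the genes with the highest levels. The next are those before the 3 protein-coding genes that rose most in the water stress medium. The first 3 were picked by hand, and the windows of ATECP31 and BGLU19, also among the highest, are not shown. All sequences are from the TAIR10.1 RefSeq genome, 250 bases that end just before the annotated start, written from 5′ to 3′ on the gene's strand. In the first 3, capitals mark CATGCA, the core of the RY element, and ACGTG, the ABRE core, on either strand, and matches may overlap.
TIP3;1, chr1:27521694-27521943, plus strand: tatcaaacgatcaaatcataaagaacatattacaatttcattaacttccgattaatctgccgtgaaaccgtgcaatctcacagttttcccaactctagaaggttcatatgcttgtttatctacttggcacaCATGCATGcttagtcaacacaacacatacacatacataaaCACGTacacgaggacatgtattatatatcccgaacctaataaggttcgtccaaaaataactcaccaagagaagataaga
HSD1, chr5:20591938-20592187, minus strand: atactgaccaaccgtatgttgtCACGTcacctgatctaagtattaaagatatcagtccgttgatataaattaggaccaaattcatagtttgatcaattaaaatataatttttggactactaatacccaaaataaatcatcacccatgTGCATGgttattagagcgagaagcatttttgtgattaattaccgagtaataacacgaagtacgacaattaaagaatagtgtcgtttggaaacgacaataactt
AT1G04560, chr1:1244697-1244946, plus strand: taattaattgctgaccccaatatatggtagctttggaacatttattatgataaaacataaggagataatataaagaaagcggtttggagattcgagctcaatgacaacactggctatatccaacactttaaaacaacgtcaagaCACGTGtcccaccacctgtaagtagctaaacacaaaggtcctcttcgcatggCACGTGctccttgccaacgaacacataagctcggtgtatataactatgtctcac
In the next 3 capitals mark TTGAC, the core of the W box bound by WRKY factors, on either strand, which has no match in the window of DDF1.
CYP82C3, chr4:15454833-15455082, plus strand: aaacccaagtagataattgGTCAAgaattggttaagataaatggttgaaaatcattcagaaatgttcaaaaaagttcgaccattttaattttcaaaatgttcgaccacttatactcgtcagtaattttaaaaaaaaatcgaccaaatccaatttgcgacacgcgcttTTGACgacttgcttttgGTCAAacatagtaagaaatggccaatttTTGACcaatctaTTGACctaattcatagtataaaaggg
DDF1, chr1:4291018-4291267, minus strand: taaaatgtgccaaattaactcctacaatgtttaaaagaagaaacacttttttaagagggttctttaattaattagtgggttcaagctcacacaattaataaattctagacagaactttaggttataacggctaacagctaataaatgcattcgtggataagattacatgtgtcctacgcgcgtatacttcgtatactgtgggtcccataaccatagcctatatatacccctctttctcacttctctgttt
AT1G72910, chr1:27435056-27435305, plus strand: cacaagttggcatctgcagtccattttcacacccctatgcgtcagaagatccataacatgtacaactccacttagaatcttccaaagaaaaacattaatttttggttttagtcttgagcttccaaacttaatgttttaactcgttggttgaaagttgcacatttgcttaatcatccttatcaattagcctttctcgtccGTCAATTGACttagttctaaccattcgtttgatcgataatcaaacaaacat
The microRNA genes listed only for wild type were MIR850 and MIR169a, whose mature products are shown with the seed, bases 2 to 8, in capitals.
miR850, chr4:7845756-7845777, plus strand: tAAGATCCggactacaacaaag
miR169a-5p, chr3:4359182-4359202, minus strand: cAGCCAAGgatgacttgccga
miR169a-3p, chr3:4359011-4359030, minus strand: gGCAAGTTgtccttggctac
The 3 seeds differ from one another. The counts are of reads over the annotated precursor loci, and the mature microRNAs were not measured.

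Most of the 288 genes stood just above the listing level. Their mean over the 5 wild-type libraries had a median of 0.99 CPM, with quartiles of 0.862 and 1.37 CPM and a range of 0.468 to 10.7 CPM, against a median of 9.5 CPM over the whole wild-type table. A total of 249 genes averaged under 2 CPM, 39 averaged 2 CPM or more, and 9 averaged 5 CPM or more. In 188 genes (65.3%) the second-highest library, which decides listing, was under 1.5 CPM. These levels are what chose the genes and are given as a description.

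**Figure D1:**
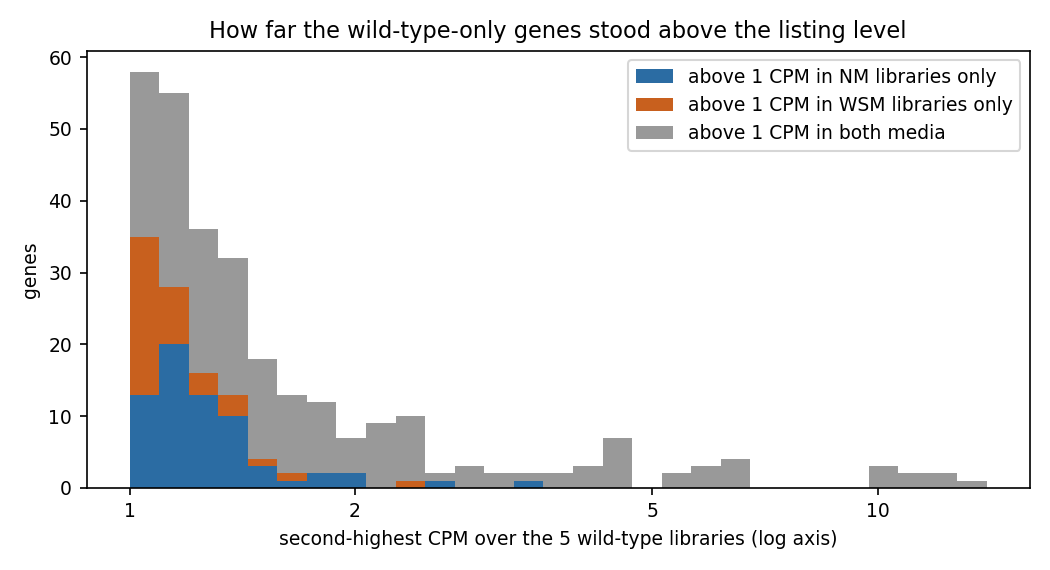
Stacked histogram of the second-highest CPM (log axis) over the 5 wild-type libraries for the 288 genes, coloured by the medium in which the gene passed 1 CPM. Most genes lie close to 1 CPM, and 188 of them are under 1.5 CPM.

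The genes nearest the level show how fine the border was. AT1G05220 had 0.328, 0.526 and 1.37 CPM in the NM libraries and 0.482 and 1.0 CPM in the WSM libraries, and AT1G16770 and UGT85A3, a glucosyltransferase gene, likewise entered with a second-highest value of 1.0 CPM. On the other side, AT1G49990 was listed for both genotypes with 0.934, 0.916, 2.07, 0.0 and 1.0 CPM in the atg5 libraries. AT1G04067 and AT1G65190 also entered the atg5 table with a second-highest value of 1.0 CPM. A single count fewer in 1 library would have moved such genes across.

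By medium, 66 genes (22.9%) passed 1 CPM in NM libraries alone, 39 (13.5%) passed it in WSM libraries alone, 40 (13.9%) passed it in all 5 libraries, and 143 (49.7%) passed it in some libraries of both media. Over the whole wild-type table these shares were 1.6%, 1.4%, 86.6% and 10.5%. A gene that entered through a single medium had to be higher there, which bears on the comparison of media below.

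The 288 genes comprised 264 protein-coding genes (91.7%, against 95.3% of the wild-type table), 14 long non-coding RNAs, 3 antisense RNAs, 3 other processed RNAs, 2 microRNA genes and 2 other non-coding RNAs. Their median exonic length was 1205.5 bases, shorter than the 1739 bases of the table, and their median GC content of 41.3% was close to its 41.2%. They lay on all 5 nuclear chromosomes, with 85 on chromosome 1 and 37 on chromosome 2, and 1 was a mitochondrial non-coding RNA. In 45 genes (15.6%) at least 10% of the exonic length lay inside exons of another gene, against 17.2% of the table, and the counts of those genes are uncertain because reads of an overlapping partner may be included. The protein-coding gene AT5G42290, for example, had 131 counts in all and lay wholly within the exons of UBL5, which had 15711.

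Many of the genes at the top of the range had seed annotation. A word rule (seed, embryo, LEA, oleosin, desiccation and similar names in the annotation), chosen after the values were seen and therefore given without a test, took 26 of the 288 genes (9.0%), 202 genes listed for both genotypes (1.02%) and 4 genes listed for atg5 alone (0.51%). It took 10 of the 20 genes with the highest mean CPM. The rule is broad, since it also took AT5G56050 and AT5G55460 through the name of a protein superfamily. In the gene families that did not depend on this rule, 6 of the 288 genes (2.1%) were seed, LEA and oil body proteins, against 1.1% of the table.

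ATECP31, a member of the seed maturation protein family, had TMM-scaled levels of 7.01, 9.88 and 10.8 CPM in the NM libraries and 10.3 and 8.06 CPM in the WSM libraries. TIP3;1, an aquaporin of the protein storage vacuole membrane in seeds, had 6.05, 11.4 and 9.3 CPM in NM and 7.76 and 7.3 CPM in WSM. For both, every wild-type library was far above the listing level and the media overlapped. TIP3;1 shares 24.6% of its exonic length with the opposite-strand gene AT1G73200, which is listed for both genotypes.

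HSD1 encodes a hydroxysteroid dehydrogenase of seed oil bodies and was listed as a pair of copies, AT5G50600 and AT5G50700, on chromosome 5. AT5G50600 had 9.55, 8.93 and 12.2 CPM in NM and 10.9 and 4.48 CPM in WSM. AT5G50700 had 6.93, 9.22 and 12.8 CPM in NM and 10 and 4.95 CPM in WSM. All 75-base stretches of either transcript occurred elsewhere in the genome and the 250 bases before the pair were identical at all 250 positions, so reads cannot be assigned between them and they are a single observation although both are counted among the 26. In both, the library WSM 4 was the lowest.

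AT1G04560, an AWPM-19-like membrane protein, had the highest mean of the set, with 12.3, 11.5 and 13.7 CPM in NM and 9.51 and 5.61 CPM in WSM. BGLU19, a beta-glucosidase, followed with 7.64, 9.17 and 11.6 CPM in NM and 12.7 and 8.1 CPM in WSM, and 23.3% of its exons overlapped an opposite-strand gene that both tables list. Per kilobase of exon, the mean levels were 8.3 CPM for ATECP31, 7.09 CPM for TIP3;1 and 5.15 CPM for BGLU19. AtMT4b, a seed metallothionein, reached 7.72 CPM per kilobase, and the related AtMT4a 1.99 CPM per kilobase.

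**Figure D2:**
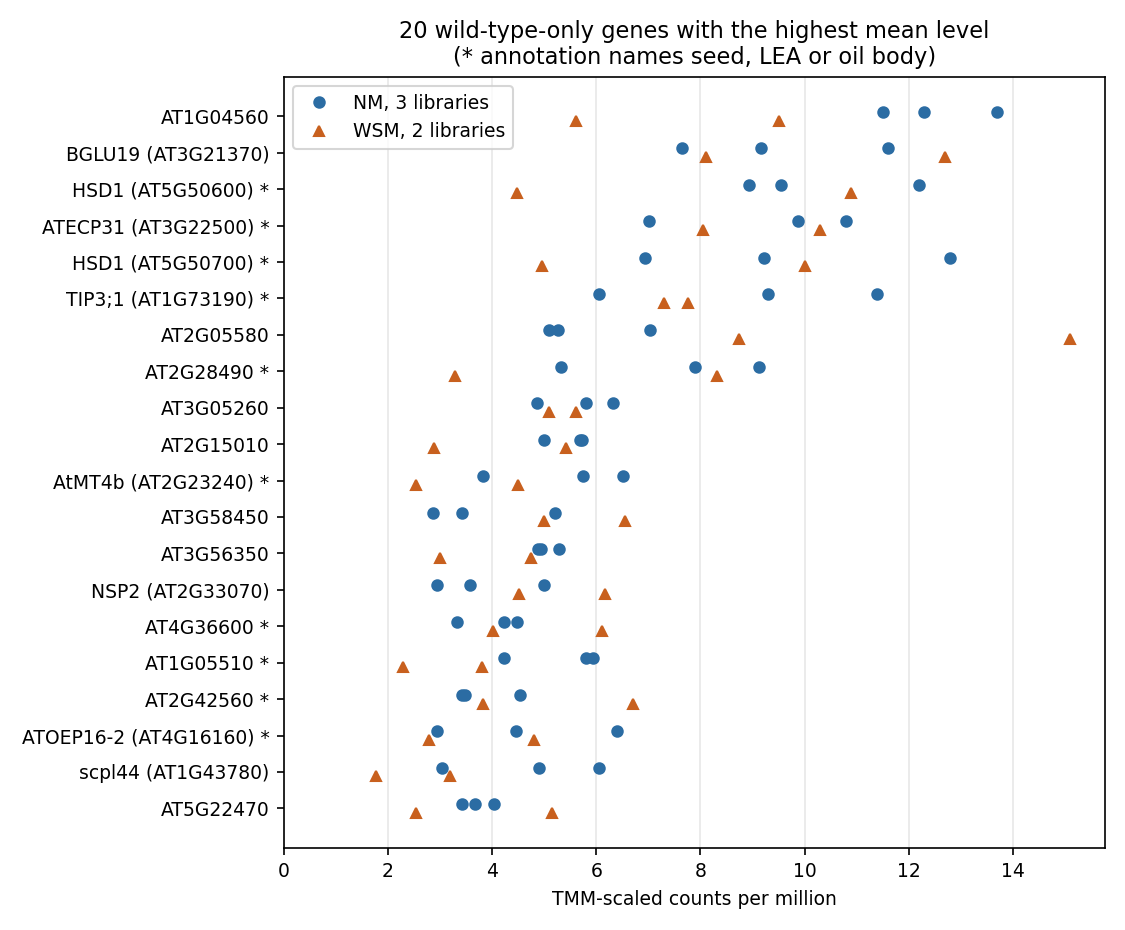
TMM-scaled CPM in each wild-type library for the 20 genes with the highest mean, with circles for the 3 NM libraries and triangles for the 2 WSM libraries. An asterisk marks the 10 genes with seed, LEA or oil body words in their annotation, and in most genes the circles and triangles overlap.

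Further down, the word rule held LEA proteins (AT4G36600 with a mean of 4.43 CPM, AT2G42560 with 4.39 CPM, AT1G72100 with 2.82 CPM), the seed succinate dehydrogenase subunit SDH2-3 with 2.45 CPM, the seed maturation protein SMP1 with 1.45 CPM, the oil body peroxygenase ATPXG2 with 1.39 CPM, the embryo-specific protein ATS3 with 1.35 CPM and RAB28, a LEA protein induced by abscisic acid, with 0.923 CPM. The 26 genes had a median of 1.94 CPM, against 0.948 CPM for the other 262. Of the 26 genes, 14 (53.8%) passed 1 CPM in all 5 wild-type libraries, against 26 (9.9%) of the other 262. Summed over the 26 genes, the level outside the rRNA regions ranged from 116 to 190 CPM across the wild-type libraries, lowest in WSM 4 and highest in WSM 3, so the media overlapped.

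Seed mRNAs that both tables list give the level in atg5 as well. CRA1 (AT5G44120), a 12S globulin storage protein, had 1624.3, 2104.4 and 2391.6 CPM outside the rRNA regions in wild-type NM, and 2578.1 and 1616.1 in wild-type WSM. In the libraries of atg5 it had 41.1 and 7.99 in NM and 6.94, 137 and 13.1 in WSM. Every wild-type library was thus above every atg5 library, in both media. CRU3, another 12S globulin, had 854 to 1138.1 in wild type and 4.63 to 60.5 in atg5. OLEO1, the main oleosin, had 8.28 to 34.1 in wild type and 0.601 to 5.53 in atg5, whereas SESA4, a 2S albumin, overlapped with 3.33 to 7.46 and 1.16 to 11.7.

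**Figure D3:**
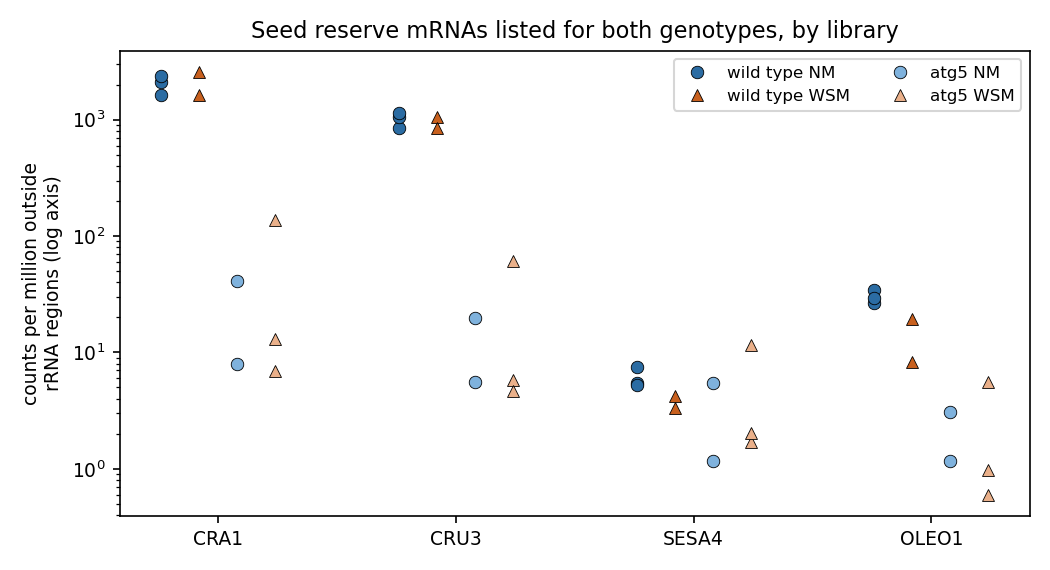
CPM outside rRNA regions (log axis) of 4 seed reserve mRNAs that both tables list, with a point for each of 5 wild-type and 5 atg5 libraries, circles for NM and triangles for WSM. CRA1, CRU3 and OLEO1 are higher in every wild-type library than in any atg5 library, and SESA4 overlaps.

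A list of seed and embryo genes had 22 matches in the wild-type table, all of them also in the atg5 table, so it held none of the 288 genes. One match, UBP14, came through an alias it shares with another gene. Of the 22 genes, 12 had every wild-type library above every atg5 library, 0 had the reverse and 10 overlapped. Over all genes in both tables these patterns made up 0.862% and 0.609%, and among the 202 genes of the word rule they held for 20 and 3 genes. The 4 reserve mRNAs summed to 2483.6 to 3664.9 CPM in wild type and 15.4 to 215 in atg5. The 202 genes of the word rule summed to 12009 to 15216 CPM in wild type and 9896 to 15187.5 in atg5, so there the genotypes overlapped. Of these, 106 had a higher mean in wild type. The part of the difference in reserve mRNAs, or of that in green tissue markers within NM, in the listing of the 26 genes was not tested.

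The regions before the annotated starts were searched on both strands for 4 short motifs. CATGCA was found before 10 of the 26 seed genes (38.5%), before 17.0% of the 264 protein-coding genes of the set and before 7.62% of the 19053 protein-coding genes of the table. ACGTG was found before 21 of the 26 (80.8%), against 33.7% and 23.9%. TTGAC, the W box core, was found before 65.4% of them, against 42.8% and 44.9%, and CCGAC, the core of the dehydration-responsive element, before 26.9%, against 11.7% and 13.1%. Both HSD1 copies are among the 26, so their identical window is counted for each copy in the shares of CATGCA and ACGTG. In the sequences above, TIP3;1 and HSD1 held both the RY and ABRE letters, and AT1G04560 the ABRE letters. The window of AtMT4b, not shown, held ACGTG but not CATGCA. Among protein-coding genes called in the comparison of media below, TTGAC was found before 9 of 18 that rose (50.0%) and 46.9% of 32 that fell, both near the 44.9% of the table. A match is a run of letters and was not tested as a binding site.

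**Figure D4:**
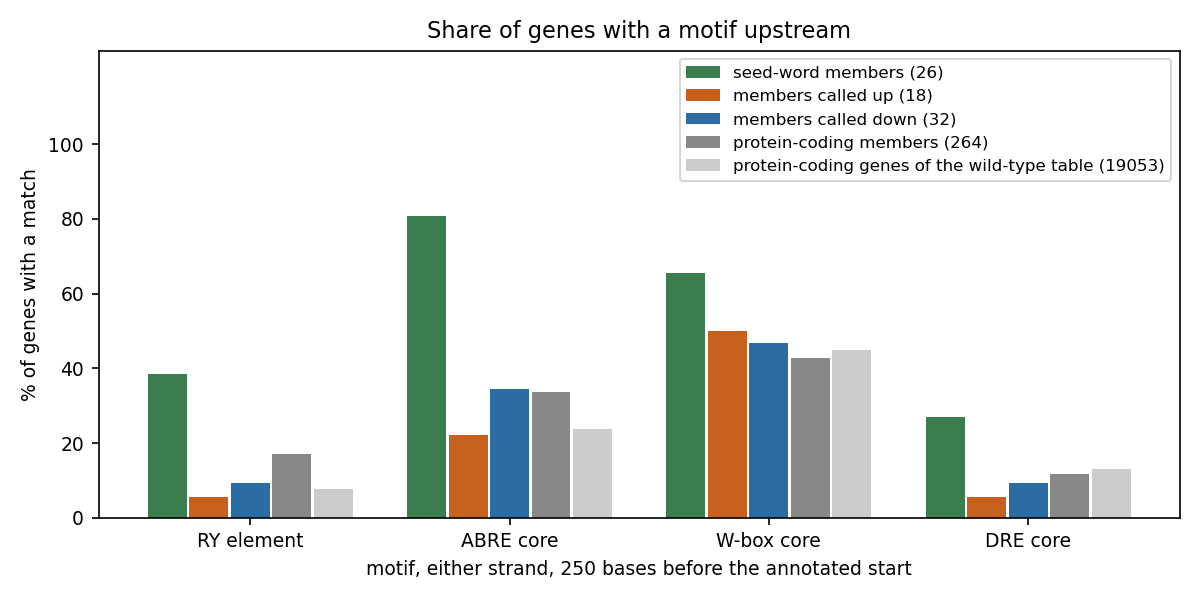
Share of genes (%) with each motif on either strand within 250 bases before the annotated start, for 5 sets of protein-coding genes whose sizes are given in the legend. The seed genes have the highest share for each of the 4 motifs, with 80.8% for the ABRE core against 23.9% of the table. They include both HSD1 copies, whose windows are identical.

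The other comparison the design offers is WSM against NM within wild type, which asks how these genes responded to the water stress medium. At an adjusted p under 0.05 in edgeR's quasi-likelihood test over all 20002 genes, 56 of the 288 genes (19.4%) were called, against a background of 29.2% of the table. Of these, 22 were higher in WSM (background 14%) and 34 were lower (background 15.2%). The share of called genes was below that of the table, whose median level was higher. With a per-library offset for gene length the split was 29 higher and 19 lower. The median log2 fold change was -0.09 over the 288 genes and 0.02 over the table.

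Entry through a single medium went with the calls. Of the 22 higher genes 17 had entered through WSM libraries alone and 5 through both media, and of the 34 lower genes 31 had entered through NM libraries alone and 3 through both. The counts of calls therefore describe the set and support nothing about its direction. The fold changes and p-values of single genes below share this limit where the gene entered through a single medium, since that listing required a difference. In 130 genes (45.1%) the libraries of the media did not overlap, against 56.6% of the table. Leaving out the library WSM 3 gave 12 higher and 38 lower genes, and leaving out NM 3 gave 36 calls in all. Tested against an absolute log2 fold of 1, 13 genes were called (background 3.66%).

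Among the higher genes were a cytochrome P450, an AP2/ERF factor and a pair of TIR-domain genes. In the keyword family of intracellular immune receptors, with 5 genes, 2 were higher (background 14%) and 1 was lower (background 15.2%). The lower gene, AT1G22900, is a dirigent-like protein that the keyword took in and not a receptor. Over the wild-type table, 58 of the 171 genes of this family were higher and 23 lower. CYP82C3, a relative of P450 enzymes that make defence metabolites, had 0 counts in all 3 NM libraries and 41 and 27 counts in WSM. Against a floor of 3 counts over the NM group the ratio of WSM to NM was 28.8 (adjusted p = 0.000452, edgeR). That ratio takes the WSM counts as exact and is not a lower bound. DDF1, an AP2/ERF factor of the DREB1 group whose overexpression lowers gibberellin and raises salt tolerance, likewise had 0 counts in every NM library and 22 and 28 counts in WSM. Its ratio to the same floor was 21.2, with the same limit (adjusted p = 0.000496, edgeR). CYP82C3 and DDF1 were both listed through WSM libraries alone, so a rise was required for their listing. Of CYP82C3, 3.8% of the 75-base stretches occurred elsewhere in the genome, and none of those of DDF1 did.

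AT1G72910, a Toll-interleukin receptor (TIR) domain protein of the class used by intracellular immune receptors, had 0.398, 0.238 and 0.298 CPM in NM and 6.21 and 1.88 CPM in WSM. The WSM libraries differed from each other but both lay above all NM libraries, and the log2 fold change was 3.71 ± 0.54 (SE, adjusted p = 0.000435, edgeR). AT1G72950, a TIR-NBS gene 7222 bases away, had 0.318, 0.523 and 0.484 CPM in NM and 2.15 and 1.08 CPM in WSM. Its log2 fold change was 1.79 ± 0.46 (adjusted p = 0.0123), and the call was lost without WSM 3. Of the 75-base stretches of AT1G72910, 9.4% occurred elsewhere in the genome. Both TIR genes were listed through WSM libraries alone.

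AT2G08965 is a long non-coding RNA at chr2:16108698-16108969. By 8.5% of its own length it overlaps WRKY33 (AT2G38470), a WRKY factor of defence against fungi, on the opposite strand. It had 0, 3 and 0 counts in NM and 89 and 23 counts in WSM. The ratio of WSM to NM was 47.4 (adjusted p = 0.00135, edgeR). Its 95% exact interval of 15.8 to 233 takes counts as independent and leaves out the spread among libraries. WRKY33, which both tables list, had 96, 180 and 283 counts in NM and 4498 and 4560 in WSM, a log2 fold change of 4.44 ± 0.20 (adjusted p = 1.58e-07, edgeR), and the part of its reads in the counts of AT2G08965 was not tested. AT5G60310, a lectin receptor kinase, rose by a log2 of 1.91 ± 0.52 (adjusted p = 0.0162), from 0.478, 0.57 and 0.149 CPM to 1.2 and 1.63 CPM. That call was lost without NM 4 and without WSM 4.

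Other higher genes had varied roles. MIR850 had 4, 3 and 4 counts in NM and 24 and 22 counts in WSM, a log2 fold change of 2.37 ± 0.55 (adjusted p = 0.00719). The groups did not overlap, and the call was lost in none of the alternatives but the fold threshold. AT1G61470, a ribonuclease H-like protein, went from 0, 8 and 2 counts to 39 and 24, with a log2 fold change of 3.03 ± 0.72 (adjusted p = 0.00813), a call lost without WSM 3. AT3G28750, an uncharacterized protein, rose by a log2 of 2.48 ± 0.53 (adjusted p = 0.00484). A mitochondrial non-coding RNA of 23 bases, listed without a symbol, went from 1, 2 and 6 counts to 44 and 22, and being shorter than a read it cannot be separated from transcripts that run across it.

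Among genes entering through both media, AT2G05580, a glycine-rich protein, had the highest level of those that rose, from 5.1, 5.27 and 7.03 CPM in NM to 15.1 and 8.75 CPM in WSM. Its log2 fold change was 1.02 ± 0.25 (adjusted p = 0.00965), and the call was lost without WSM 3. AT5G51500, a pectin methylesterase family gene, rose by a log2 of 1.45 ± 0.39 (adjusted p = 0.0152), from 0.717 to 1.12 CPM in NM to 1.75 and 3.4 CPM in WSM. The call was lost without NM 3 and without WSM 4, where the log2 fold change was 0.86. Other called genes overlap a partner and are uncertain, and apart from NOGC1 each lost its call in at least 3 of the 5 fits that left out a library: NOGC1, a flavin-containing monooxygenase (log2 1.85), AT1G20515, a non-coding RNA (1.46), UPS2, a ureide permease (1.3), and the MADS-box gene AGL67 (1.10) with its opposite-strand neighbour AT1G77960 (1.27).

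**Figure D5:**
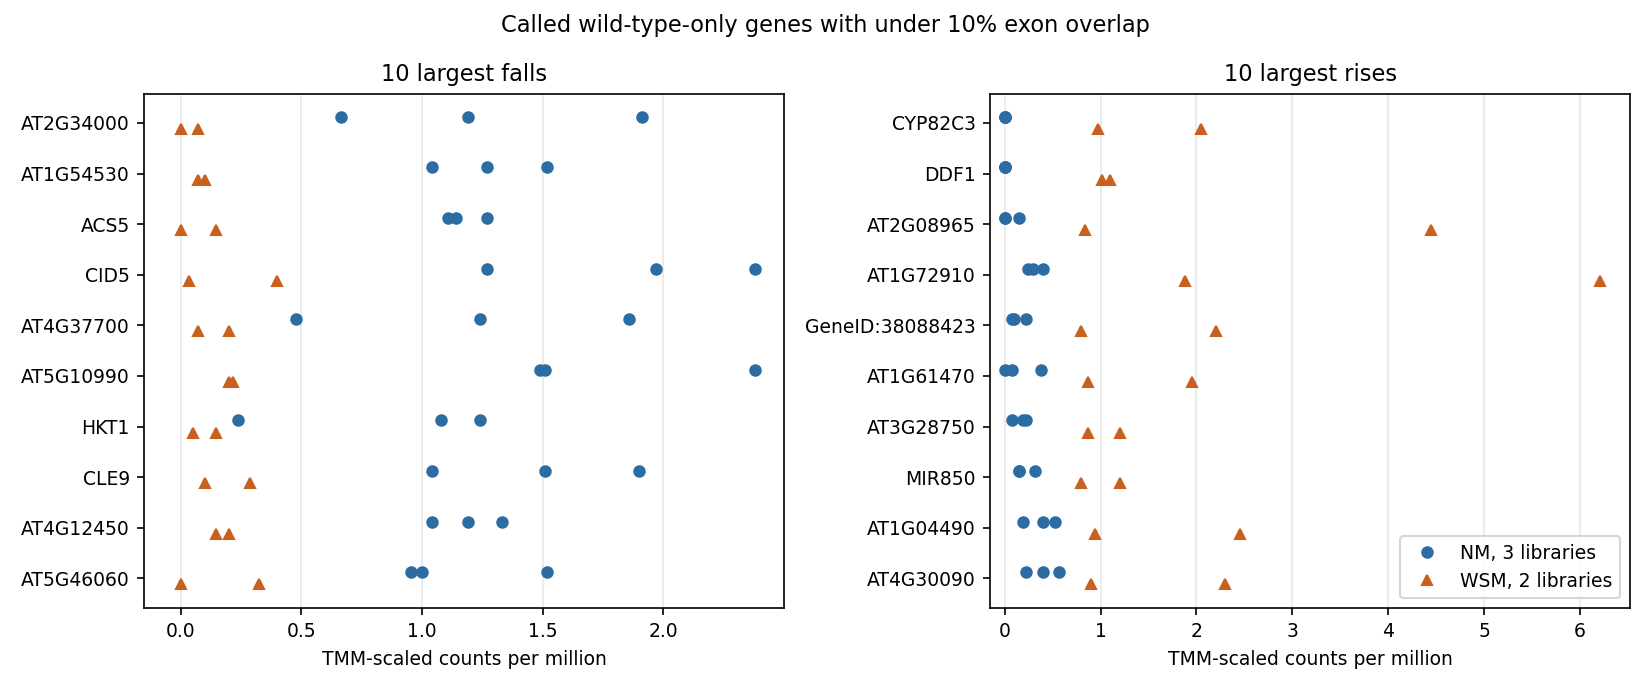
TMM-scaled CPM in each wild-type library for the 10 largest falls (left) and 10 largest rises (right) in WSM among called genes with under 10% exon overlap, with circles for the 3 NM libraries and triangles for the 2 WSM libraries. In each of these genes the circles and triangles do not overlap, and the highest level on the lower side is 0.57 CPM.

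Genes of hormone synthesis and growth were among the 34 lower ones, of which 31 had entered through NM libraries alone. ACS5, which makes the ethylene precursor ACC, had 1.11, 1.14 and 1.27 CPM in NM and 0 and 0.145 CPM in WSM. The NM libraries were close together, and the log2 fold change was -3.75 ± 0.69 (adjusted p = 0.00192, edgeR). AT5G10990, a SAUR-like auxin-responsive protein, had 1.51, 2.38 and 1.49 CPM in NM and 0.2 and 0.217 CPM in WSM, a fall of -3.07 ± 0.50 (adjusted p = 0.000874). SAUR28, of the same family, fell by 2.22 on the log2 scale (adjusted p = 0.0102). YUC2, an auxin synthesis enzyme, had a log2 fold change of -2.11 ± 0.56 (adjusted p = 0.0144), a call lost without NM 3 and without WSM 3.

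Families were assigned from keywords in the annotation. Family counts of calls, here and below, share the limit stated above for genes that entered through a single medium. Of the 8 genes in the hormone family, 0 were higher and 3 were lower in edgeR (background 14% and 15.2%). At an unadjusted p under 0.05 or in DESeq2, 0 of them were higher. Over the wild-type table, 21 of the 206 genes of the hormone family were higher and 65 lower in edgeR. YUC2 and GA2OX7 were counted in the oxidoreductase family, with 2 higher and 5 lower of 21 genes (background 14% and 15.2%). Over the wild-type table, 75 of the 747 genes of the oxidoreductase family were higher and 125 lower. GA2OX7, which inactivates gibberellins, went from 2.95, 2.47 and 2.23 CPM to 1.4 and 0.362 CPM, a log2 fold change of -1.58 ± 0.48 (adjusted p = 0.0282). It ranged from -2.78 to -0.85 over the fits that left out a library, and the call was lost without NM 2, NM 3 or WSM 4 and with the length offset. GA20OX3, of gibberellin synthesis, and YUC9 were not called, with log2 fold changes of 0.62 and 0.77 (adjusted p = 0.331 and 0.276). PRE1, a bHLH protein that promotes elongation downstream of gibberellin and brassinosteroid, had a log2 fold change of -1.83 ± 0.58 (adjusted p = 0.0334), with 0.1 and 0.687 CPM in the WSM libraries, and the call was lost without NM 2, NM 3 or WSM 3.

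The family of secreted peptides and small defence proteins held 13 genes, among them CLE and ROTUNDIFOLIA-like signalling peptides, defensins and a thionin. In edgeR 0 were higher and 3 lower (background 14% and 15.2%), and 1 was higher at an unadjusted p under 0.05. In DESeq2 0 were higher and 2 lower. Over the wild-type table, 35 of the 366 genes of this family were higher and 117 lower in edgeR. CLE9, a CLAVATA3-related peptide that acts in the stomatal lineage and the root, had 1.51, 1.9 and 1.04 CPM in NM and 0.1 and 0.289 CPM in WSM, a log2 fold change of -2.80 ± 0.56 (adjusted p = 0.00304). CLE20 (-1.85, adjusted p = 0.016, 12% exon overlap) and the defensin-like AT4G22217 (-1.46, adjusted p = 0.0485) were the other two. The call of CLE20 was lost without NM 3, without WSM 4 and with the length offset, and that of AT4G22217 in 4 of the 5 fits that left out a library, in DESeq2 and with the length offset. CLE26 and the ROTUNDIFOLIA-like genes RTFL2 and RTFL5 were not called.

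Among 7 genes taken as transporters, 2 were higher, UPS2 and RPN12b, a proteasome subunit that the keyword took in, and 2 were lower. In DESeq2 0 of the 7 were higher. The edgeR background was 14% higher and 15.2% lower. Over the wild-type table, 89 of the 763 genes of this family were higher and 143 lower. HAK5, the high-affinity potassium uptake transporter of roots, had 2.07, 3.61 and 2.68 CPM in NM and 0.5 and 0.434 CPM in WSM, a log2 fold change of -2.59 ± 0.41 (adjusted p = 0.000735). HKT1, which retrieves sodium from the root xylem, had 0.239, 1.24 and 1.08 CPM in NM and 0.05 and 0.145 CPM in WSM, a log2 fold change of -3.06 ± 0.78 (adjusted p = 0.0117), a call lost without WSM 3. Summed root markers (CASP1, COBL9, EXPA7, PIP2;4 and TIP2;3) were 224 to 244 CPM outside the rRNA regions in wild-type NM and 84.8 to 103 in WSM, with every one of the 5 lower in both WSM libraries, and their part in the falls of HAK5 and HKT1 was not tested.

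Large falls were also found in genes with less known roles. AT2G34000, a RING-type ubiquitin ligase protein, had 24, 14 and 32 counts in NM and 0 and 2 in WSM, all of them even. The ratio of NM to WSM was 27.6 (adjusted p = 0.00177, edgeR). Its 95% exact interval of 7.35 to 232 takes counts as independent and leaves out the spread among libraries. If counts are not independent molecules, that interval is too narrow. AT1G54530, an EF-hand calcium-binding protein, went from 1.27, 1.52 and 1.04 CPM to 0.1 and 0.0723 CPM, a log2 fold change of -3.83 ± 0.60 (adjusted p = 0.000657). CID5, a protein of the group that interacts with poly(A)-binding protein, fell by 3.25 on the log2 scale (adjusted p = 0.00312), and the uncharacterized AT4G37700 also by 3.25 (adjusted p = 0.00535). AT4G12450, a C2H2 zinc finger protein, fell by 2.77 (adjusted p = 0.00219).

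Smaller falls were found in LAF1, a MYB factor of phytochrome A signalling (-1.69, adjusted p = 0.0128), the bHLH gene AT4G25410 (-1.95, adjusted p = 0.011), the ubiquitin-conjugating enzyme UBC12 (-1.10, adjusted p = 0.0482) and AT1G67035 (-1.22, adjusted p = 0.0485). LAF1 lost its call without NM 3 or WSM 4 and AT4G25410 without WSM 3. UBC12 lost it in 4 of the 5 fits that left out a library, AT1G67035 in all 5, and both in DESeq2 and with the length offset. TET4, a tetraspanin (-2.39), and AT5G51915 (-1.39) overlap a partner by 10.3% and 100% and are uncertain. The call of TET4 was lost without WSM 4. AT5G51915 lost its call in all 5 fits that left out a library, in DESeq2, with the length offset and with the replicate block. By family, 1 of 3 MYB, 2 of 3 bHLH and 1 of 7 zinc finger genes were lower (background 15.2%) and 0 were higher (background 14%) in edgeR. In DESeq2 and at an unadjusted p under 0.05, 0 were higher. Over the wild-type table, 27 of 109 MYB, 14 of 97 bHLH and 68 of 407 zinc finger genes were lower. There 12, 10 and 60 of these genes were higher. Of 6 cytochromes P450, CYP82C3 was the sole call, and CYP79F1, of aliphatic glucosinolate synthesis, had a log2 fold change of 1.04 (adjusted p = 0.17). Of 10 cell wall genes, 2 were higher and 0 lower in edgeR (background 14% and 15.2%) and in DESeq2. At an unadjusted p under 0.05, 4 were higher and 0 lower. Over the wild-type table, 55 of the 448 cell wall genes were higher and 146 lower. Of 10 lipases, esterases and other hydrolases 0 were called in edgeR or DESeq2, and 1 was higher at an unadjusted p under 0.05. Over the wild-type table, 123 of the 829 genes of that family were higher and 103 lower.

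Between the media, 0 of the 26 seed genes were higher and 1 was lower in both edgeR (background 14% and 15.2%) and DESeq2, and 2 were higher and 2 lower at an unadjusted p under 0.05 in edgeR. That gene, AT1G05510, of a family of oil body proteins, had 4.22, 5.94 and 5.81 CPM in NM and 3.8 and 2.28 CPM in WSM, a log2 fold change of -0.84 ± 0.29 (adjusted p = 0.0462). AT1G04560, outside the word rule, fell by 0.74 on the log2 scale (SE 0.23, adjusted p = 0.0296). Both calls were lost without NM 3, without NM 4, without WSM 4 and with the length offset. The call of AT1G04560 was also lost without NM 2. The median log2 fold change was -0.25 over the 26 genes and -0.06 over the other 262.

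Of the gene lists for pathways and tissues, the jasmonate, ethylene and wounding list was the sole one with genes of the set. It had 24 genes in the wild-type table, of which 2 were listed for wild type alone: ACS5, and ORA59, an ERF factor that joins jasmonate and ethylene signals, which was not called (-0.75, adjusted p = 0.261). The lists for salicylic acid and defence (12 genes in the wild-type table), water deficit and abscisic acid (17), root cell types (28), guard cells (17), reproductive organs (7), hypoxia and heat (21) and autophagy (33) held 0 genes of the set.

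In the authors' deposited table, 44 of the 288 genes had an adjusted p under 0.05 for the same contrast, 17 higher and 27 lower (background 27.2%). All 44 were called in the same direction by edgeR. For the named genes the authors' values equal those of the DESeq2 alternative used here, so they are not a separate check. The authors' deposited table marks 6 of the genes as up and 14 as down (background 2.81%). These marked genes had an absolute log2 fold change of at least 2.0 in the authors' deposited table. For 20 of the 56 genes called by edgeR, 8 higher and 12 lower, the call was kept in all 5 fits that left out a library and in 6 other alternatives, not counting the test against a log2 fold of 1. CYP82C3, DDF1, AT2G08965, AT1G72910, ACS5, AT5G10990, HAK5 and CLE9 were among the 20 and also passed that test. MIR850, NOGC1 and SAUR28 were among the 20 and did not pass it. Each gene named as passing that test had entered through a single medium, so its listing required a difference. The alternatives reuse the same libraries and do not remove that limit.

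Within the set, 21 pairs of genes lay within 10 kb of each other. They included ATECP31 with AT3G22490, another seed maturation protein, 781 bases apart, whose log2 fold changes were -0.03 and -0.29. The TIR genes AT1G72910 and AT1G72950 were a pair in which both rose. The pectin methylesterase neighbours AT5G51490 and AT5G51500 had log2 fold changes of 0.21 and 1.45, of which the second was called.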

How the data were processed

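The labels' protocols name a stranded mRNA library kit and paired-end sequencing. The submitters' processing notes name the TAIR10 build and bcl2fastq, Bowtie2, bedtools and DESeq2, with no versions given in the sources used here. Raw counts per gene and library were deposited by the authors, in 1 table per genotype. Both tables also hold log2 fold changes and adjusted p-values computed by the authors, per the file headers, and 10 columns of normalized values that were not used. Column numbers differ from the titles' numbers, and columns were assigned to groups without naming a sample. The tables do not say how strand was used, so overlapping genes are reported as uncertain. Of 1425 nonzero counts of the 288 genes 62.5% were even, so counts may not be independent molecules.

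The members and all lists were chosen with earlier results of these data known. All 20002 genes of the wild-type table were fitted in edgeR 4.0.16 (limma 3.58.1, R 4.3.3), quasi-likelihood with TMM factors, on 5 libraries leaving 3 residual degrees of freedom. The biological coefficient of variation was 17.2%. A call is a Benjamini-Hochberg adjusted p under 0.05 over all genes. Every p given with an edgeR fold change is from this fit. The planned design assumed the labelled samples, and the count columns replaced them. Scaled CPM uses TMM factors. CPM outside the rRNA regions leaves out 31 genes within 5 kb of those regions. The code was tested on simulated data.

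Symbols, positions and exons came from the TAIR10.1 RefSeq annotation. Named genes are the 6 called genes that rose most and the 6 that fell most without overlap, 3 of each with overlap, the 6 highest by mean CPM, up to 2 called genes of each family of 3 or more, every list member, and the 3 genes nearest the listing level on either side, 43 of the 288 in all. Other genes named were chosen after their values were seen. Alternatives were RLE factors, edgeR's filterByExpr, DESeq2 1.42.0, a fold threshold, leaving out rRNA-region genes, a length offset, a replicate block, each library left out in turn, and for the listing level 2 CPM and totals without rRNA-region genes.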

Additional observations from a re-analysis of the deposited data

How the results depend on the processing

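The 56 calls (22 higher, 34 lower) came to 13 (5 and 8) when tested against an absolute log2 fold of 1, where the background was 3.66%, and the lower calls to 19 with the length offset. Leaving out 1 library gave 36 to 50 calls, 12 to 20 of them higher and 19 to 38 lower; the lowest totals came without NM 3 (36) and without WSM 4 (37). RLE factors, filterByExpr, DESeq2 and leaving out rRNA-region genes each moved the total by under 1.5 times. With the column number as a replicate block it was 54. Deviations of same-numbered columns correlated at 0.10 and 0.16, over 2 numbers, so a shared number is not shown to pair samples. Of the 56 called genes 0 changed sign in any alternative, and of 9 named genes that were not called 6 changed sign in at least 1, among them ATECP31 (-0.03, and 0.26 with the length offset). The cause of these shifts was not tested.

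The listing patterns depend on the scale. At 2 CPM, 7 genes passed in NM alone, 3 in WSM alone, 19 in all 5 libraries, 31 in some of both media and 228 in under 2 libraries. With totals that leave out rRNA-region genes, 30 passed in NM alone, 17 in WSM alone and 124 in all 5. At 19 to 21.9 counts per CPM, the 249 genes under 2 CPM rest on few counts, which limits the size of change that can be called.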
